A study of Mus musculus with 2 samples.

Results

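The globin genes of the mouse were followed here in the single cell RNA sequencing (scRNAseq) of the embryonic brain, as the 7 members Hbb-y, Hbb-bh1, Hbb-bs, Hbb-bt, Hba-x, Hba-a1 and Hba-a2. They were taken by their symbols, and all 7 were found among the 28001 genes of the septal explant library and the 32286 genes of the telencephalic vesicle library. Expression was counted as unique molecular identifiers (UMIs), each of which marks 1 captured transcript molecule, per gene and cell barcode. Such 3′ counting gives 1 UMI per molecule whatever the length of the transcript. UMIs of different members can thus be set side by side within a library, with a limit for near-identical members given below. The septal explants had been pooled from 8 E11.5 PGKCre;Rosa26YFP and 4 E12.5 Dbx1Cre;Rosa26tdTomato embryos, each from 2 litters. PGKCre drives recombination through a ubiquitous promoter, so that YFP can mark any cell, whereas Dbx1Cre restricts tdTomato to cells with a history of Dbx1 expression. The telencephalic vesicle library came from 3 WT embryos of 2 litters, labelled E12. The labels give the strain C57BL/6J and a wild-type genotype for both. Each condition has 1 library, without replicates, and its UMIs cannot be traced to single embryos, so that no test between conditions was possible and the intervals below are 95% intervals that cover counting error only. Levels were not compared between the libraries, because the kit (v2 and v3.1), the counting software and the dissection differed, and these cannot be told apart from the tissue and stage.

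Haemoglobin is a tetramer of alpha-type and beta-type chains. In the mouse, Hba-x (zeta), Hbb-bh1 (beta-h1) and Hbb-y (epsilon-y) encode embryonic chains, whereas Hba-a1 and Hba-a2 encode the adult alpha chain and Hbb-bs and Hbb-bt the adult beta chains. The first, primitive erythroid cells arise in the yolk sac, enter the circulation as nucleated cells and mature there, whereas definitive erythroid cells from the foetal liver use adult chains. As primitive cells mature, Hbb-bh1 is known to give way to Hbb-y, and Hba-x to the adult alpha genes.

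The beta-type genes lie on the minus strand of chromosome 7 (GRCm38), in the order Hbb-bt (chr7:103812524-103813996), Hbb-bs (chr7:103826534-103828096), Hbb-bh1 (chr7:103841637-103843164) and Hbb-y (chr7:103851749-103853216). The alpha-type genes lie on the plus strand of chromosome 11, in the order Hba-x (chr11:32276400-32278116), Hba-a1 (chr11:32283511-32284465) and Hba-a2 (chr11:32296489-32297298). The 120 bases before the RefSeq start are shown for the 6 members with an entry in the RefSeq promoters of GRCm38.p6, since these are the stretches in which embryonic and adult genes can be set side by side. Hbb-bh1 has no entry there. The RefSeq starts differ from the starts of the gene intervals given above. The windows of Hba-x, Hba-a1 and Hbb-bs lie wholly within those intervals, and those of Hbb-y, Hbb-bt and Hba-a2 overlap them in part. Each sequence is written 5′ to 3′ on the strand of the gene, and capitals mark CACCC and CCAAT, and the TATA-type words ATATAA or CATAAA, on either strand (ATTGG is the reverse complement of CCAAT). The windows are chr7:103853208-103853327 for Hbb-y, chr7:103827929-103828048 for Hbb-bs, chr7:103813924-103814043 for Hbb-bt, chr11:32276480-32276599 for Hba-x, chr11:32283552-32283671 for Hba-a1, chr11:32296372-32296491 for Hba-a2.
Hbb-y: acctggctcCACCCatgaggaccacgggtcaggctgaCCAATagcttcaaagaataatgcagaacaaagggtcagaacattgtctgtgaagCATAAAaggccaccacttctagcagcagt
Hbb-bs: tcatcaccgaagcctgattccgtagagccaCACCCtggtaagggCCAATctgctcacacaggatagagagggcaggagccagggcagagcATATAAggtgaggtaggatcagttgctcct
Hbb-bt: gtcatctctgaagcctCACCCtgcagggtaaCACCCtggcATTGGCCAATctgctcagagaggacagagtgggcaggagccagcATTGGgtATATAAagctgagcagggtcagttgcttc
Hba-x: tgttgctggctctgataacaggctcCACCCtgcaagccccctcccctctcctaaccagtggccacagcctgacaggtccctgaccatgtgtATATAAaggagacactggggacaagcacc
Hba-a1: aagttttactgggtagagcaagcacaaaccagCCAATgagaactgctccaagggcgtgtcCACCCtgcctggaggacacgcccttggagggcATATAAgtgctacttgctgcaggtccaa
Hba-a2: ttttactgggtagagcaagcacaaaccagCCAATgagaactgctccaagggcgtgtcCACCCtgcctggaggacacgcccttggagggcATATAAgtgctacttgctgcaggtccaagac
CACCC was present in all 6 windows and in 31.7% of the 32851 promoter windows of that length. A TATA-type word was also present in all 6, against 9.16% of all windows, and ended 23 to 26 bases before the start. CCAAT was present in 5 of 6, against 21.3% of all windows, and was not found in these letters in the window of Hba-x. The only GATAA in the 6 windows was that of Hba-x, against 10.5% of all windows. Hbb-bt had 2 CACCC words where Hbb-bs had 1. The entries of Hba-a1 and Hba-a2 shared an identical run of 297 of 300 bases. In the longest annotated coding transcripts, Hba-a1 and Hba-a2 differed at 1 of 538 aligned positions, so that the split of reads between them is uncertain. Whether reads that match both were counted at all was not tested. This also limits their summed count, and the shares and alpha-type over beta-type ratios that include it. Hbb-bs and Hbb-bt were 93.0% identical over 618 aligned positions, and their split is uncertain to a lesser degree. Hbb-y and Hbb-bh1 were 72.6% identical over 605 aligned positions.

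The septal library held 83103280 UMIs in 5827 barcodes, with 3902 to 84281 per barcode, and the telencephalic library 194821794 UMIs in 14283 barcodes, with 500 to 207131 per barcode. 1 barcode sequence occurred in both. The filters described for the study (mitochondrial share within 3 median absolute deviations, and doublets marked by Scrublet) left 5384 and 11758 barcodes, of which neural barcodes were taken. Globin-rich barcodes were taken before these filters, since their median mitochondrial share in the septal explants was 0.376% against 2.20% in the whole library, and only 26 of 90 passed.

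Barcodes in which the members made up 10% or more of all UMIs (hereafter globin-high) were few in both libraries. They numbered 90 of 5827 in the septal explants (1.54%, exact Clopper-Pearson interval 1.24 to 1.90%). Of the 14283 telencephalic barcodes 714 were globin-high (interval 4.65 to 5.37%). In the septal explants they stood apart, since the highest barcode below the threshold had 0.986% globin and the lowest above it had 10.8%. They held 97.0% of all globin UMIs of that library. The telencephalic values ran on through the threshold, with 9.98% just below and 10.02% just above it, and 3233 barcodes lay between 1 and 10%. Those 3233 had a median of only 1526 UMIs, against 8503 for the whole library, and the globin-high barcodes held 73.6% of its globin UMIs.

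**Figure D1:**
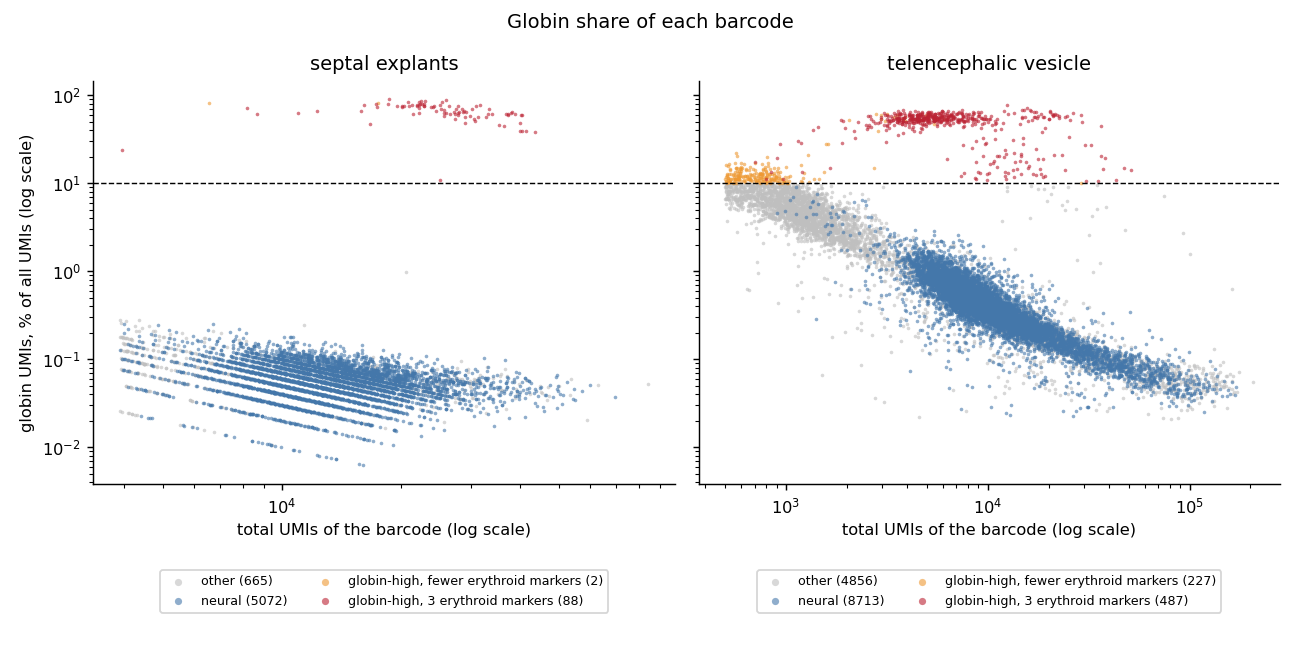
Globin share of all UMIs (vertical, log scale) against total UMIs (horizontal, log scale) for each barcode with a globin UMI (14 septal and 6 telencephalic barcodes had none), with the threshold of 10% dashed. Globin-high barcodes are red, or orange where they hold fewer than 3 erythroid markers, neural barcodes are blue and all others grey. In the septal explants the 90 globin-high barcodes sit above an empty range, whereas in the telencephalic vesicle shallow barcodes reach the threshold, 227 of them with fewer than 3 erythroid markers.

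The erythroid label was checked against 9 listed erythroid markers other than globin, of which 8 were among the genes of the libraries. At least 3 of them were detected in 88 of the 90 septal barcodes and in 487 of the 714 telencephalic barcodes. The other 227 telencephalic barcodes had a median of 734 UMIs and 89 globin UMIs, and they cannot be called erythroid from these markers. Embryonic chains made up 82.3% of their globin UMIs (interval 82.0 to 82.6%), against 83.6% in the 487 (interval 83.6 to 83.7%). In telencephalic neural barcodes this share was 82.1% (interval 82.0 to 82.2%). The median mitochondrial share was 6.00% in the 227 and 2.93% in the 487. Alas2, which makes the first enzyme of haem synthesis in erythroid cells, was found in all 90 septal and in 448 telencephalic globin-high barcodes. Ahsp, which encodes a chaperone of free alpha chains, was the listed marker without an entry under that symbol in either library, so that its expression was not measured. Neural markers were present in globin-high barcodes. Neural barcodes were chosen by their UMIs of these same progenitor and neuronal genes. A lower level in globin-high barcodes was thus built into the comparison, and it is not read as evidence for the erythroid label. In septal globin-high barcodes 8 progenitor genes had 527 CPM and 7 neuronal genes 843 CPM, against 2012 and 3015 CPM in neural barcodes. CPM are counts scaled to a library of 1e6 UMIs, here without globin. The same lists had 751 and 666 CPM in telencephalic globin-high barcodes, against 1795 and 1423 CPM. These UMIs were uneven over globin-high barcodes, with septal medians of 2 and 2 and highest values of 52 and 198. The telencephalic medians were 1 and 0 and the highest values 88 and 133. At least 3 genes of the list were detected in 76 and 55 of the 714 telencephalic barcodes. Of 9 macrophage markers, 7 were at 0 in the septal and 6 at 0 in the telencephalic globin-high barcodes. Endothelial markers had 136 UMIs in the septal globin-high barcodes, of which 128 were in 1 barcode, the one with 10.8% globin. Without barcodes of more than 5 neural marker UMIs, the 3 embryonic members made up 71.7% of septal and 83.5% of telencephalic globin UMIs, against 73.7 and 83.6% over all. With a threshold of 20%, which leaves out the barcode with endothelial markers, the septal value was 73.7%.

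Hbb-y was the most abundant member in both libraries. In the septal globin-high barcodes its share of globin UMIs was 52.6% (interval 52.5 to 52.6%), with 5, 8976 and 12937 UMIs in the lowest, the median and the highest barcode. The telencephalic share was 55.3% (interval 55.2 to 55.4%), with 18, 1258.5 and 9020 UMIs. The share was narrow among barcodes, with quartiles of 51.3 and 55.2% in the septal explants and of 53.1 and 60.3% in the telencephalic vesicle.

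Hbb-bh1, the other embryonic beta-type gene, held 7.53% of septal (interval 7.49 to 7.57%) and 6.33% of telencephalic globin UMIs (interval 6.29 to 6.36%). The lowest, the median and the highest septal barcode held 1, 1148.5 and 3151 UMIs of it, and the telencephalic ones 0, 119 and 1487. Among beta-type UMIs alone its share was 11.3 and 9.70%. Over septal barcodes this share ran from 0.0102 to 26.2%, with a median of 11.1%. The telencephalic values ran from 0 to 24.9%, with a median of 8.71%. The 487 barcodes with 3 erythroid markers had a median of 8.93% and none below 0.785%.

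The adult beta genes were the least abundant. Hbb-bt held 5.06% of septal (interval 5.03 to 5.10%) and 3.11% of telencephalic globin UMIs (interval 3.08 to 3.13%). Hbb-bs held 1.72% (interval 1.70 to 1.74%) and 0.547% (interval 0.536 to 0.558%). Both together made up 10.1% of septal beta-type UMIs (interval 10.1 to 10.2%) and 5.60% of telencephalic ones (interval 5.56 to 5.64%). These septal values include 1 adult-type barcode described further on. Without it, Hbb-bs held 1.33% and Hbb-bt 4.87% of septal globin UMIs. Septal barcodes held 38, 837.5 and 3752 UMIs of Hbb-bt (lowest, median and highest) and 1, 107.5 and 6076 of Hbb-bs. The telencephalic ones held 0, 50.5 and 1065 of Hbb-bt and 0, 3 and 324 of Hbb-bs. Hbb-bs was thus detected in all 90 septal globin-high barcodes, but in 533 of 714 telencephalic ones. Among these it was detected in 440 of the 487 barcodes with 3 erythroid markers, with a median depth of 5766 UMIs, and in 93 of the other 227, with a median of 734, against 25651.5 UMIs in the septal barcodes.

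Of the alpha-type genes, Hba-x was the most abundant in both libraries when all globin-high barcodes were summed. Hba-a1 exceeded it among septal barcodes of at most 5 neural marker UMIs (13.2 against 12.8%) and in the group of 30 with the least ribosomal protein transcripts described further on (14.2 against 11.4%). Its share of globin UMIs was 13.6% in the septal explants (interval 13.5 to 13.6%) and 22.0% in the telencephalic vesicle (interval 21.9 to 22.0%), which is 41.0 and 63.2% of alpha-type UMIs. Hba-a1 followed with 12.7% (interval 12.6 to 12.7%) and 8.34% (interval 8.30 to 8.38%). Hba-a2 held 6.86% (interval 6.82 to 6.91%) and 4.42% (interval 4.39 to 4.45%). In septal barcodes Hba-x had 0, 2273.5 and 4508 UMIs (lowest, median and highest), Hba-a1 97, 2185.5 and 4211, and Hba-a2 64, 1091 and 3100. In telencephalic barcodes Hba-x had 5, 389 and 4802 UMIs, Hba-a1 1, 186.5 and 1374, and Hba-a2 0, 98 and 820. In the septal explants Hba-a1 and Hba-a2 together therefore exceeded Hba-x, whereas in the telencephalic vesicle Hba-x exceeded both together.

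The order of the members was the same in both libraries, from Hbb-y through Hba-x, Hba-a1, Hbb-bh1, Hba-a2 and Hbb-bt to Hbb-bs. No counting intervals of neighbours in this order overlapped, but the ranges of the shares over barcodes did for every pair of neighbours. For Hbb-y and Hba-x that overlap rests on a few barcodes, among them the adult-type septal barcode described further on, and in the 487 telencephalic barcodes with 3 erythroid markers Hbb-y was at least 40.7% and Hba-x at most 34.2%. Without the septal barcodes of more than 5 neural marker UMIs the septal order differed, with Hba-a1 (13.2%) above Hba-x (12.8%) and Hba-a2 (7.46%) above Hbb-bh1 (6.87%). The 3 embryonic members together made up 73.7% of septal (interval 73.6 to 73.8%) and 83.6% of telencephalic globin UMIs (interval 83.5 to 83.6%). Alpha-type UMIs were fewer than beta-type UMIs, at a ratio of 0.495 in the septal explants (interval 0.493 to 0.497) and of 0.532 in the telencephalic vesicle (interval 0.530 to 0.534).

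**Figure D2:**
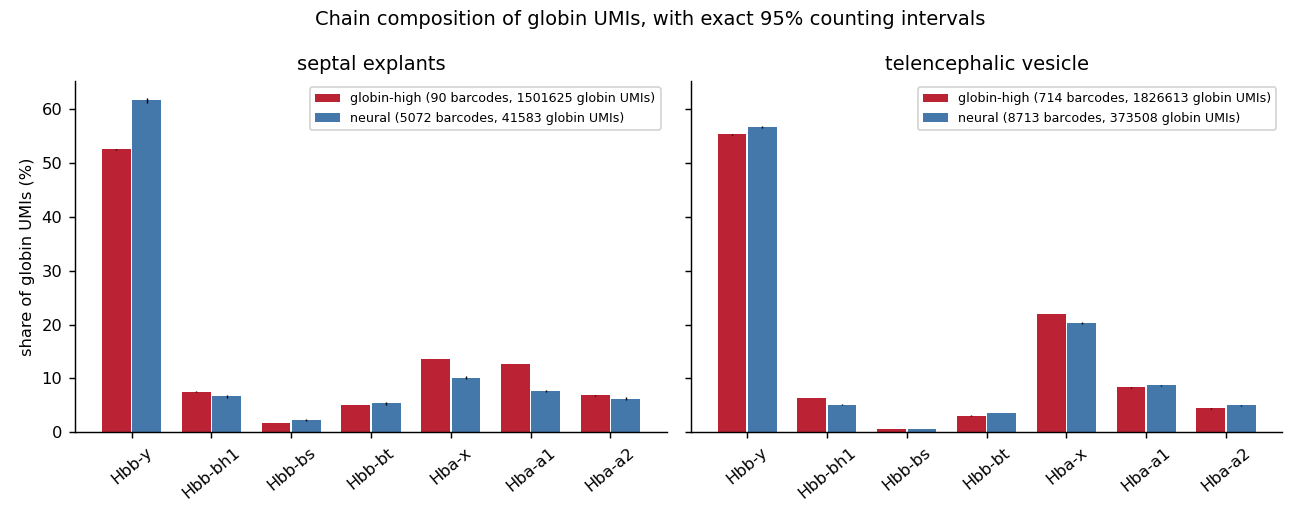
Share of each member in the globin UMIs (%, vertical) summed over globin-high (red) and neural (blue) barcodes of each library, with exact 95% counting intervals as thin bars. Hbb-y leads in all 4 sets with 52.6 to 61.6%, and septal Hba-a1 shows the widest gap between globin-high (12.7%) and neural (7.67%) barcodes relative to its share.

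The shares of Hbb-bh1 and Hba-x varied together among barcodes. Over the 88 septal globin-high barcodes with 3 erythroid markers, the Hbb-bh1 share of beta-type UMIs and the Hba-x share of alpha-type UMIs had a Spearman's rho of 0.72 and a Pearson's r of 0.70. Over the 487 telencephalic barcodes rho was 0.61 and r was 0.61, and over all 714 rho was 0.41. Both shares come from separate gene clusters, but from the same barcode and its depth, and the barcodes of a library share its preparation. The septal barcodes were also pooled from E11.5 and E12.5 embryos, and the telencephalic embryos may differ in age within E11.5-E12. The part of stage in the relation was not tested in either library. Total UMIs had a rho of 0.32 with the Hba-x share in the septal and of 0.40 in the telencephalic barcodes, and their part in the relation was not tested. The adult beta share had a rho of -0.68 with the Hba-x share in the 88 septal barcodes and of -0.16 in the 487 telencephalic ones. The relation of alpha-type over beta-type UMIs to the Hba-x share had opposite signs, with a rho of -0.25 in the septal and of 0.64 in the telencephalic barcodes.

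**Figure D3:**
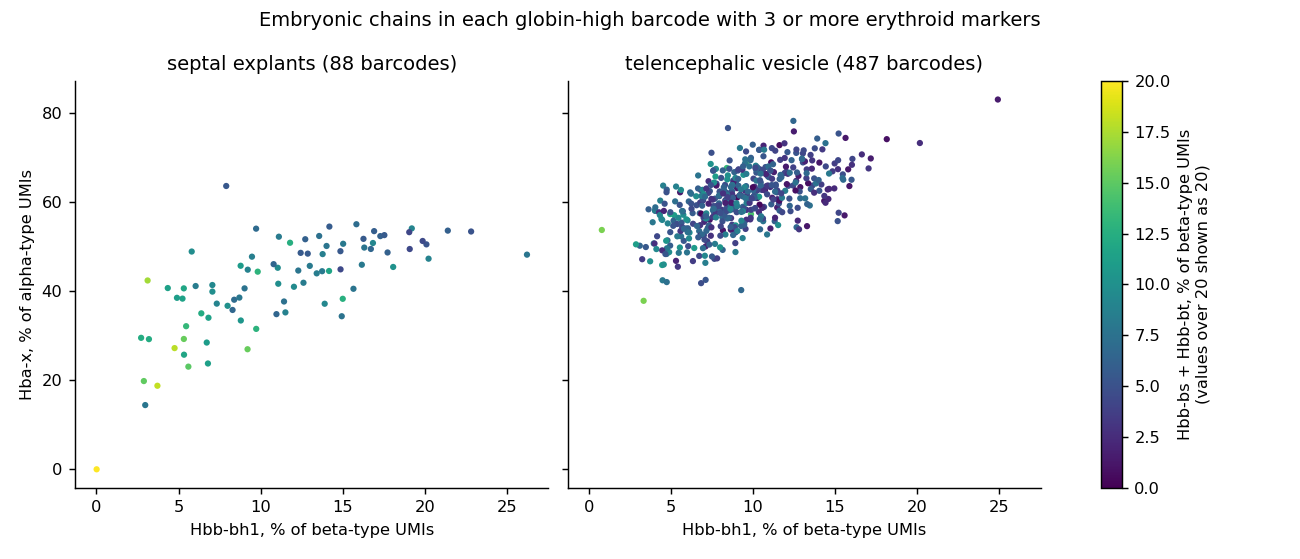
Hba-x as a percentage of alpha-type UMIs (vertical) against Hbb-bh1 as a percentage of beta-type UMIs (horizontal) for each globin-high barcode with 3 or more erythroid markers, coloured by the adult beta share (values over 20% shown as 20%). Higher values of both shares occur together in both libraries (Spearman's rho 0.72 over 88 and 0.61 over 487 barcodes), and 1 septal barcode lies at the origin.

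Barcodes were also ordered by a measure without globin, the share of cytosolic ribosomal protein genes in non-globin UMIs, which is known to fall as erythroid cells mature. The 89 septal globin-high barcodes in which adult beta was at most 50% of beta were divided into 3 groups of 30, 30 and 29 by that share. Hbb-bh1 was 7.96% of beta-type UMIs (interval 7.87 to 8.06%) in the group with the least ribosomal protein transcripts, 11.4% in the middle and 14.6% (interval 14.5 to 14.7%) in the group with the most. Hba-x was in the same order 33.8% of alpha-type UMIs (interval 33.6 to 34.1%), 43.9% (interval 43.7 to 44.2%) and 47.0% (interval 46.8 to 47.3%). The adult beta share went the other way, from 11.7 to 8.68 and 7.52%. Median total UMIs were close in these groups, at 25243.5, 25546 and 26409. In the 3 groups of the 713 telencephalic barcodes divided in the same way, Hba-x and Hbb-bh1 were lowest in the middle, with Hba-x at 62.5, 60.5 and 64.7% of alpha-type UMIs and Hbb-bh1 at 9.12, 8.81 and 10.3% of beta-type UMIs. Adult beta was 5.86, 5.70 and 5.46% of beta there. There the group with the least ribosomal protein transcripts had a median of only 999 UMIs, against 5471 in that with the most. The median globin shares of these 3 groups were 13.1, 49.0 and 55.0%. The ribosomal share had a rho of 0.66 with the globin share over the 713 barcodes and of 0.56 over the 487. Over the 89 septal barcodes that rho was -0.14. Whether the order follows maturity was not tested in either library. Among the 487 barcodes with 3 erythroid markers Hba-x was 62.0, 60.7 and 65.6%, Hbb-bh1 8.96, 9.01 and 10.6%, and adult beta 5.93, 5.55 and 5.44%.

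The composition was also read by the globin share of the barcode. Septal Hbb-bh1 held 5.23% of globin UMIs in the 1 barcode of 10 to 20% globin, 7.21% from 20 to 40% (5 barcodes), 10.0% from 40 to 60% (17 barcodes), 7.55% from 60 to 80% (58 barcodes) and 2.88% at 80% and above (9 barcodes). Hba-x held 21.5, 14.1, 15.2, 14.0 and 7.15% in these ranges. At 80% and above, the 8 barcodes other than the adult-type barcode described next had 3.23% of Hbb-bh1, 8.02% of Hba-x, 3.52% of Hbb-bs and 5.30% of Hbb-bt. No telencephalic barcode reached 80%. Between the 331 telencephalic barcodes of 40 to 60% and the 79 of 60 to 80%, Hba-x was 22.0% in both ranges, Hbb-bh1 was 6.62 and 5.56%, and adult beta was 5.28 and 6.31% of beta-type UMIs.

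A single septal barcode was of the adult type. It held 18673 UMIs, of which 89.4% were globin, the highest share of that library. Its members were counted at 6076 UMIs of Hbb-bs, 3752 of Hbb-bt, 3755 of Hba-a1 and 3100 of Hba-a2, against 5 of Hbb-y, 1 of Hbb-bh1 and 0 of Hba-x. Adult beta was thus 99.9% of its beta-type UMIs, and the next highest septal barcode had 18.2%. It is 1 of 90 barcodes (1.11%, interval 0.0281 to 6.04%). It held 32 UMIs of Alas2 and 1 UMI of the eYFP reporter. Without it, the embryonic share of the septal globin UMIs was 74.5%. Of the 714 telencephalic globin-high barcodes, 1 had adult beta over 50% of beta (79.6%), with 2724 UMIs and 1 UMI of the erythroid markers. At a threshold of 20% globin, 0 of 456 telencephalic barcodes were of that kind (3 counts, the limit that a count of 0 allows, would be 0.658%), and their highest value was 16.0%.

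The split between the adult paralogs was narrow for the alpha pair and wide for the beta pair. In septal globin-high barcodes with at least 50 UMIs of the pair, Hba-a1 held a median of 65.4% of Hba-a1 and Hba-a2, with quartiles of 62.7 and 68.2% over 90 barcodes. The telencephalic median was also 65.4%, with quartiles of 63.0 and 67.9% over 496 barcodes. By contrast, the share of Hbb-bs in Hbb-bs and Hbb-bt ran from 0.212 to 61.8% over 89 septal barcodes, with a median of 14.5%. It ran from 0 to 84.3% over 404 telencephalic barcodes, with a median of 8.84%, under 5% in 151 barcodes and over 50% in 25. The pooled septal share of 25.4% includes the 6076 Hbb-bs UMIs of the adult-type barcode. The counting interval of the barcode left out this share in 81 of the 89 septal barcodes, and the pooled 14.9% in 290 of the 404 telencephalic ones. For Hba-a1 this was so in 60 of 90 and 93 of 496 barcodes. In the 89 septal barcodes without the adult-type one, Hbb-bs as a share of beta-type UMIs had a rho of -0.57 with the Hba-x share, and in the 487 telencephalic barcodes of -0.17. How reads were shared between the paralogs by the authors' counting was not tested.

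**Figure D4:**
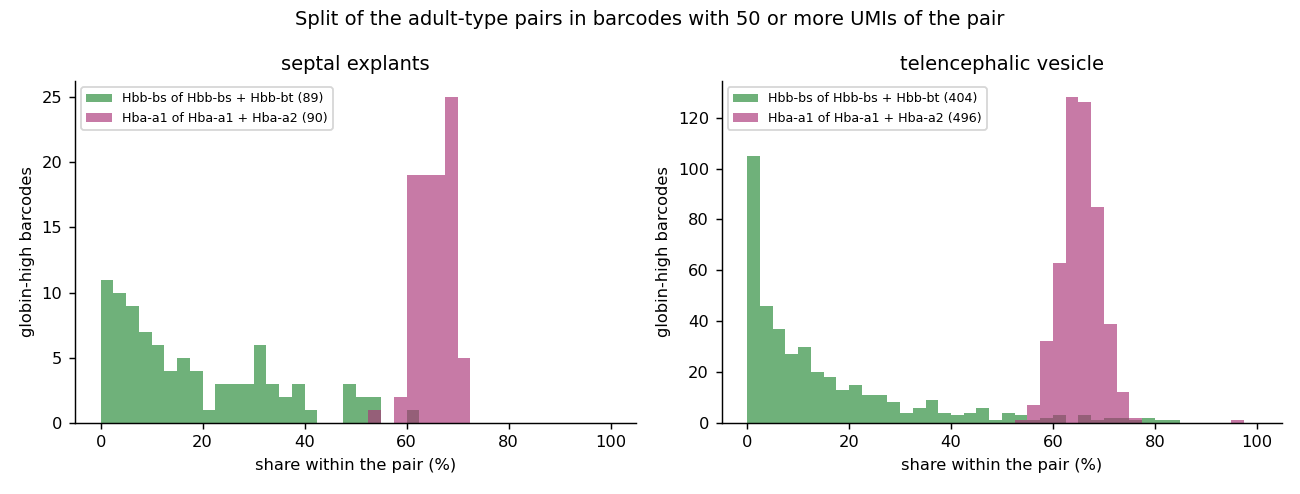
Number of globin-high barcodes (vertical) by the share of 1 paralog within its pair (%, horizontal) for barcodes with 50 or more UMIs of the pair. Hba-a1 (purple) forms 1 peak around its median of 65.4% in both libraries, whereas Hbb-bs (green) is spread from near 0 to 61.8% in the septal explants and to 84.3% in the telencephalic vesicle.

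The reporters of the septal explants were read in the same barcodes. eYFP was found in 84 of the 90 globin-high barcodes, with 737 UMIs in all, and the tdTomato sequence in 3, with 8 UMIs. The reporters were not counted in other barcodes, and the part of background RNA in these counts was not tested. In the 72 barcodes with 3 or more eYFP UMIs, Hba-x was 42.4% and Hbb-bh1 11.7% of their families. In the 12 barcodes with 1 or 2 eYFP UMIs, which include the adult-type barcode, they were 35.2 and 9.86%, adult beta was 15.5% of beta and the median was 4330 non-globin UMIs. The adult-type barcode held 6076 UMIs of Hbb-bs and 3752 of Hbb-bt, among the 113015 beta-type UMIs of these 12. Shares without it were not computed, so that the 15.5% is not read as a trait of barcodes with few eYFP UMIs. In the 6 barcodes without eYFP, Hba-x was 34.2% and Hbb-bh1 7.64% of their families. Adult beta was 10.6% of beta in these 6, against 9.38% in the 72. The 6 had a median of 4252.5 non-globin UMIs, against 9172.5 in the 72, and the part of this depth in the reporter call was not tested. All 3 barcodes with tdTomato also held eYFP UMIs, 26 together.

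Globin UMIs were also found in nearly every neural barcode. A neural barcode held at least 10 UMIs of at least 3 of 15 neural markers and at most 2 UMIs of the 39 markers of other cell types, and globin was not used to choose it. In the 5072 septal neural barcodes the members together reached 575 CPM (exact Poisson interval 570 to 581), and 5063 of them had at least 1 globin UMI, with a median of 8. In the 8713 telencephalic ones they reached 2959 CPM (interval 2950 to 2969), and all had a globin UMI, with a median of 40. With no limit on the markers of other cell types the values were 2885 CPM in septal and 3077 CPM in telencephalic neural barcodes. Hbb-y reached 355 CPM in septal and 1678 CPM in telencephalic neural barcodes, and Hba-x 58.4 and 600.1 CPM. Hbb-bs was the lowest, with 13.1 CPM (interval 12.3 to 14.0) and 19.0 CPM (interval 18.3 to 19.8). Thinned to 8000 UMIs, Hbb-y was found in 93.6% and Hbb-bs in 9.95% of 4634 septal neural barcodes, against 98.7 and 17.5% of the same barcodes at full depth, and 438 shallower ones were left out. Thinned to 5500 UMIs, they were found in 99.0 and 13.0% of 7925 telencephalic neural barcodes, against 100 and 23.5% at full depth, and 788 were left out. Shares at or below these are read as background and not as expression. No profile of empty droplets was analysed here, and the source of these UMIs was not tested.

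Globin UMIs were also counted in barcodes of other kinds. Septal progenitor-type and neuron-type barcodes had 558 (interval 552 to 565) and 614 CPM (interval 603 to 624), and the 34 mesenchyme barcodes 515 CPM (interval 458 to 578). Telencephalic progenitor-type and neuron-type barcodes had 2455 (interval 2445 to 2464) and 5406 CPM (interval 5374 to 5437). Yet their median number of globin UMIs was 40 and 41, and their median depth 11068 and 6978 UMIs. The 53 telencephalic macrophage barcodes had a median of 37 globin UMIs, and the 471 mesenchyme barcodes of 38.

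The number of globin UMIs in barcodes without erythroid markers was related to depth in different ways in each library. Among barcodes without any UMI of the 9 erythroid markers, the telencephalic median was 53 globin UMIs at 500 to 1000 total UMIs, 38 at 8000 to 16000 and 41 at 32000 and above. The median globin share in these ranges was 7.38, 0.357 and 0.0757%. Of the 780 such barcodes at 500 to 1000 UMIs, 157 passed the threshold of 10%, as did 12 of 1168 at 1000 to 2000 UMIs and none of the deeper ones. In the septal explants the median was higher in deeper barcodes, with 5 globin UMIs at 4000 to 8000 total UMIs and 7, 10 and 18 in the deeper ranges.

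**Figure D5:**
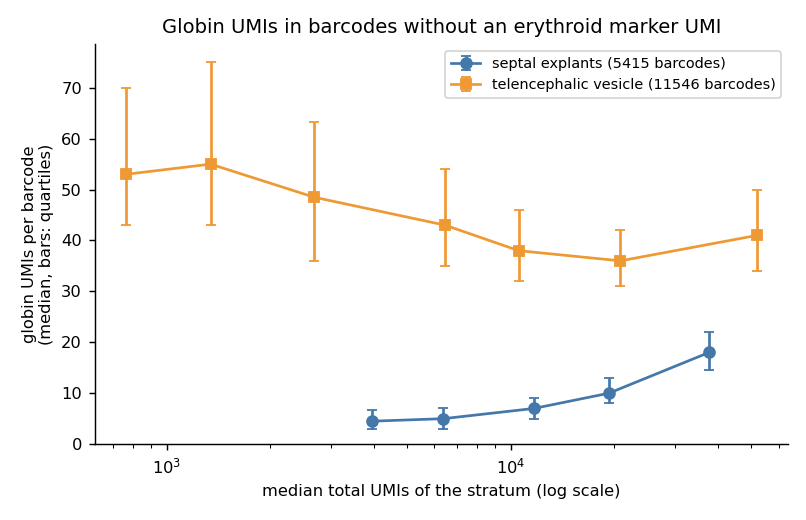
Median globin UMIs per barcode (vertical, bars give the quartiles) in ranges of total UMIs (median of the range, horizontal, log scale) for barcodes without a UMI of the 9 erythroid markers. The telencephalic medians stay between 36 and 55 from the shallowest to the deepest range, and the septal medians run from 4.5 in the shallowest to 18 in the deepest range.

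The composition of globin UMIs in neural barcodes was set beside that of globin-high barcodes. The share of a member in neural over that in globin-high telencephalic barcodes was between 0.808 for Hbb-bh1 (interval 0.796 to 0.821) and 1.18 for Hbb-bs (interval 1.12 to 1.23). In the septal explants the ratio was 1.17 for Hbb-y (interval 1.16 to 1.19), 0.747 for Hba-x (interval 0.724 to 0.770) and 0.605 for Hba-a1 (interval 0.584 to 0.627), but 0.906 for Hba-a2 (interval 0.871 to 0.942). It was 0.886 for Hbb-bh1 (interval 0.853 to 0.920), 1.06 for Hbb-bt (interval 1.02 to 1.11) and 1.33 for Hbb-bs (interval 1.24 to 1.42). Hba-a1 was thus 64.9% of Hba-a1 and Hba-a2 in septal globin-high barcodes, whereas in neural barcodes 3190 UMIs were of Hba-a1 and 2586 of Hba-a2. Alpha-type over beta-type UMIs was 0.316 in septal neural barcodes (interval 0.309 to 0.324) against 0.495 in globin-high ones, and 0.515 (interval 0.512 to 0.519) against 0.532 in the telencephalic vesicle.

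The other genes of the erythroid programme were set beside the members, as CPM without globin in globin-high over neural barcodes. A gene was called at a difference of 4-fold or more with at least 20 UMIs in both sets together. By this rule 492 of 14150 septal genes were higher (3.48%) and 1100 lower (7.77%) in globin-high barcodes, and 516 of 17560 telencephalic genes higher (2.94%) and 410 lower (2.33%). The median fold over all genes was 0.742 in the septal and 0.821 in the telencephalic library. Globin-high barcodes were chosen on globin alone, and the lists below hold none of the 7 members.

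Of 13 genes of haem synthesis and transport, 12 were higher in both libraries, with a median fold of 24.1 among septal and 17.1 among telencephalic barcodes. Alas2 reached 3397 CPM in septal globin-high barcodes (interval 3274 to 3523) against 0.720 CPM in neural ones. The telencephalic level was 610 CPM (interval 580 to 642) against 2.96 CPM. Slc25a37, the mitochondrial iron importer, had 1068 against 5.70 CPM and 1150 against 13.0 CPM. The exception was Alas1, the form of the first enzyme used outside the erythroid lineage, with 10.6 against 28.2 CPM and 14.3 against 17.4 CPM. Of 15 genes of the erythrocyte membrane, all were higher in septal and 13 in telencephalic globin-high barcodes. Slc4a1, the anion exchanger of the red cell membrane, reached 734 against 0.277 CPM and 739 against 1.64 CPM. Epb41 and Add2, members of the spectrin skeleton, were the 2 not called in the telencephalic vesicle, at 2.79-fold (interval 2.62 to 2.97) and with 110 against 44.1 CPM.

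Of 5 iron genes, 5 and 3 were higher, among them Tfrc, the transferrin receptor, with folds of 5.15 (interval 3.93 to 6.65) and 5.28 (interval 4.82 to 5.78). Of 9 measured genes of maturation and protection, 6 and 5 were higher, and Car2, a carbonic anhydrase, had 6123 CPM in septal and 1651 CPM in telencephalic globin-high barcodes. Prdx2, a peroxiredoxin, was the most abundant of the list there, with 8542 and 4885 CPM, and passed the fold in the septal explants (5.26-fold) but not in the telencephalic vesicle (3.38-fold). Aqp3 and Aqp8 were higher in both libraries, with 104 and 100 CPM in the septal and 43.0 and 30.7 CPM in the telencephalic barcodes. Aqp1, the water channel of adult red cells, was at 0 in the globin-high barcodes of both, which allows up to 3.53 and 1.23 CPM (3 counts).

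Among 17 regulators of globin genes, of which 16 had enough UMIs in each library, 6 were higher and 3 lower in the septal explants, and 5 were higher and 0 lower in the telencephalic vesicle. Klf1, the main activator of the adult beta genes, had 468 CPM in septal (interval 423 to 516) and 202 CPM in telencephalic globin-high barcodes (interval 184 to 221). Gata1 and Tal1, core factors of erythroid transcription, had 146 and 192 CPM in the septal and 77.0 and 129 CPM in the telencephalic barcodes. Bcl11a, a repressor of embryonic beta genes in definitive cells, had 28.2 CPM in septal globin-high barcodes (interval 18.1 to 42.0) against 120 CPM in neural ones. Sox6, which is known to silence Hbb-y, had 14.1 CPM (interval 7.29 to 24.7) against 27.7 CPM. Telencephalic levels were 91.3 against 216 CPM and 148 against 501 CPM. Bcl11a was called lower in the septal explants, but Sox6 did not reach 4-fold. The other regulators called lower there, Nr2c1 and Lin28b, rest on 1 UMI each in globin-high barcodes. Bcl11a and Sox6 are also neural genes, and the part of neural RNA in their levels in globin-high barcodes was not tested. Of 5 genes of immature erythroid cells, 3 had enough UMIs in each library, of which 0 were called in the septal explants and 1 was higher in the telencephalic vesicle. Kit had 3 and 6 UMIs in septal and telencephalic globin-high barcodes, Myb 1 and 12, Gata2 0 and 1, and Cd34 9 and 0. The gene called was Myc, with 43 telencephalic UMIs and a fold of 5.89 (interval 4.20 to 8.10), against 24 septal UMIs and no call.

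Of 6 genes of the wider globin family, 2 septal and 5 telencephalic ones had enough UMIs for a call. Hbq1b (theta-type) was higher in both libraries, with 320 CPM in septal and 136 CPM in telencephalic globin-high barcodes. Hbb-bh2, another beta-like gene, had 4 UMIs in septal and 26 UMIs in telencephalic globin-high barcodes, and 0 in the neural barcodes of both. The telencephalic difference is at least 447-fold higher in globin-high barcodes, with the neural ones set at 3 UMIs in all. Cygb, Mb and Ngb, which encode cytoglobin, myoglobin and neuroglobin, had 0, 0 and 0 UMIs in the septal and 2, 0 and 0 UMIs in the telencephalic globin-high barcodes.

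The genes most confined to globin-high barcodes were taken as the 10 with the highest share of their UMIs there, among those with at least 100 UMIs. In the septal explants, where globin-high barcodes held 1.04% of all non-globin UMIs, these included Hsd3b6 (98.8%), Rhag (98.4%), Gm42749 (98.2%), Trim10 (97.8%), Alas2 (97.7%), Hbq1b (97.5%), Pdzk1ip1 (97.3%), Icam4 (97.2%) and Ermap (96.9%). Among telencephalic genes, where they held 1.27% of these UMIs, the first was 5430401H09Rik (91.4%), and the others included Pkhd1l1, Cldn13, Kel, Kcnn4, Rhag, Gm867, Ermap and Aqp3, down to 80.8%. Rhag and Ermap, which encode a Rhesus-associated glycoprotein and a blood group protein, were in both lists.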

How the data were processed

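The data were droplet scRNAseq libraries of septal explants and of the telencephalic vesicle. Per the submitters' processing notes, the authors made the deposited counts of UMIs per gene and barcode with Cell Ranger (2.1.1 for septal explants, 7.1.0 for the telencephalic vesicle) on mm10, the former with YFP and tdTomato sequences added. Whether intronic reads were counted is not given in the sources used here. No normalised values were used.

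The counts were read with pandas 2.3.3 (Python 3.11.15), and Scrublet was run in scanpy 1.11.5. Intervals were computed with scipy 1.17.1 as exact Clopper-Pearson, Poisson or conditional intervals at 95%, which cover counting error only. Barcodes with 10% or more globin UMIs were called globin-high. Neural barcodes passed a filter on the mitochondrial share (3 median absolute deviations) and Scrublet (expected doublet rate 0.8% per 1000 barcodes), held at least 10 UMIs and 3 genes of 15 neural markers, and at most 2 UMIs of 39 non-neural markers. Genes were called at 4-fold with at least 20 UMIs, after removal of globin from the denominator. A fold against 0 used 3 UMIs. No test between conditions was made, because each has 1 library. Script output was checked on simulated counts.

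The members and gene lists were chosen with earlier results of these data known. Named genes were the members, those of the fixed lists with the most UMIs in globin-high barcodes, at 0 or called differently, and the 10 with the highest share of their UMIs in globin-high barcodes. Bcl11a, Sox6, Gata1, Tal1, Klf1, Tfrc, Slc4a1, Slc25a37, Alas1, Nr2c1 and Lin28b were named for their known roles or their call, after their values were seen. A result of each list of 10 is not reported here. Promoter sequences were taken from RefSeq (GRCm38.p6), with an entry for 6 of 7 members, and transcripts were aligned locally with biopython 1.88.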

Additional observations from a re-analysis of the deposited data

How the results depend on the processing

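No paired analysis was possible because each condition has 1 library, and leaving out a replicate was not possible for the same reason. Values not named here moved by less than their counting interval or, for counts, by less than 1.5 times. The septal globin-high barcodes numbered 26 after the mitochondrial and Scrublet filters. Their embryonic share was 73.6% at a threshold of 50%, 76.6% after the filters, 74.0% as the mean over barcodes, 71.7% without barcodes of more than 5 neural marker UMIs and 74.5% without the adult-type barcode, an alternative chosen after seeing the data. Alpha-type over beta-type UMIs was 0.479 after the filters and 0.491 as the median. Septal neural globin was 587 CPM with 0 non-neural UMIs and 2885 CPM with no limit on them, and 98.6% of thinned and 99.2% of neural barcodes at 2 or more UMIs held globin. The septal genes called higher numbered 260 with globin kept in the denominator, 924 at 2-fold and 304 at 8-fold. Telencephalic globin-high barcodes numbered 1769 at 5%, 456 at 20% and 330 at 50%. Their embryonic share was 83.46% at 50%, 82.9% as the mean and 83.52% without barcodes of more than 5 neural marker UMIs, and alpha-type over beta-type UMIs was 0.537 at 50%, 0.535 after the filters and 0.508 as the median. Telencephalic neural globin was 3798 CPM with 0 non-neural UMIs, 3077 CPM with no limit, 2883 CPM without the filters and 2658 CPM without barcodes of 1% or more globin, and 99.8% of thinned barcodes held globin. The telencephalic genes called higher numbered 1036 at 2-fold and 327 at 8-fold. Of the single-member shares, 29 of 63 septal and 21 of 56 telencephalic alternatives left the counting interval. The only change over 1.5 times was that of septal Hbb-bs, with 1.11% after the filters. The cause of these differences was not tested.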

Other observations

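A few barcodes below or near the globin threshold had chain ratios unlike those of the others, and were picked out after their values were seen. Among 532 telencephalic barcodes with 200 or more globin UMIs, 6 held more alpha-type than beta-type UMIs. 4 of these were among the 25 endothelial barcodes, those with at least 10 UMIs of 3 endothelial markers. They held 322 to 1322 globin UMIs, with 157 to 622 UMIs of Hba-x against 96 to 368 of Hbb-y, and alpha-type over beta-type UMIs was 1.70. They also held 16 to 55 endothelial and 2 to 8 erythroid marker UMIs. Their neural against endothelial marker UMIs were 25 against 47, 26 against 55, 81 against 20 and 79 against 16. In the other 21 endothelial barcodes, with 21 to 52 globin UMIs each, the ratio was 0.489 and Hba-x made up 15.4% of globin UMIs. Another barcode, with 27785 UMIs, 8 endothelial and 58 neural marker UMIs, held 200 UMIs of Hba-x against 97 of Hbb-y. The last, with 2724 UMIs, held 275 UMIs of Hba-a1 and 90 of Hbb-bt against 21 of Hbb-y, 8 of Hba-x and 12 of Hba-a2, and 75 UMIs of Ctla2a.

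None of the 91 septal barcodes with 200 or more globin UMIs held more alpha-type than beta-type UMIs. 1 of the 91 held more Hbb-bh1 than Hbb-y. It had 20594 UMIs, of which 0.986% were globin, with 160 UMIs of Hbb-bh1, 35 of Hbb-bt and 3 of Hbb-y, beside 11 endothelial and 11 erythroid marker UMIs. Whether such barcodes hold more than 1 cell was not tested beyond the Scrublet filter, which all 7 passed.

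In the telencephalic vesicle 37 barcodes below the threshold of 10% held 3 or more erythroid markers. Their globin share was 30249 CPM, their median depth 20991 UMIs, and embryonic chains made up 83.8% of their globin UMIs (interval 83.5 to 84.2%). They also held a median of 42 neural marker UMIs, against 33 in neural barcodes, and whether they hold more than 1 cell was not tested.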
